A study of Mus musculus with 4 samples.

Results

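Calcium handling genes encode the channels, pumps, buffers and sensors that carry calcium through a heartbeat. The 31 genes described here were taken by name from a list of calcium entry, release, uptake, buffering and sensing genes, matched through the Ensembl identifiers of the count files, and all 31 were found among 43346 counted identifiers. The samples were mouse hearts at postnatal day 0, the day of birth: 2 libraries from MRTFA/B double knockout hearts (DKO) on a mixed strain background and 2 libraries from wild type hearts (WT) on the ICR background. MRTFA and MRTFB are coactivators of serum response factor (SRF), and the comparison sets newborn hearts labelled as knockout for both against wild type hearts. Genotype and strain background cannot be told apart. The labels name neither the promoter or Cre behind the knockout nor whether animals were pooled. Nor is it stated that each library is a different animal, so p-values cover only library-to-library spread, which may be technical.

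In a cardiac muscle cell, depolarisation opens L-type calcium channels, and the calcium that enters opens ryanodine receptors on the sarcoplasmic reticulum, which release far more. The pump SERCA2 then returns calcium to the store under the brake of phospholamban, and the sodium-calcium exchanger carries the rest out of the cell. At birth the store, its buffers and the junctions that couple it to the surface membrane are still maturing.

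Library totals ran from 16175259 to 27328195 counts in DKO and from 25205257 to 29460641 in WT. All 31 genes passed the filter on low counts, as did 16009 genes in all. Levels are TMM-adjusted CPM (counts scaled to library size), and levels of different genes are compared only per kilobase of annotated exon. The targeted Mrtfa was at 3.35 and 2.26 CPM in the DKO libraries and at 9.06 and 11.1 CPM in the WT libraries. Mrtfb was at 46.0 and 49.6 CPM in DKO and at 46.9 and 56.8 CPM in WT, and counts over a whole gene do not check a deletion of part of it. The tissue label was met by its markers: the summed level of 7 cardiomyocyte genes was 39517 and 35832 CPM in DKO, and 43167 and 43137.5 CPM in WT. In bulk samples, fewer cells of a type and less RNA per cell cannot be told apart.

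Upstream regions of 3 genes are shown because they belong to the genes on which the results turn: Casq1, the calsequestrin with the lowest level in DKO relative to WT, its cardiac partner Casq2, and Pln, which encodes phospholamban. Each sequence is the stretch of 250 bases before the RefSeq transcription start (build GRCm38.p6, the build also called mm10), read 5′ to 3′ on the gene's strand. Capitals mark matches on either strand to an E-box (CANNTG), a GC box (GGGCGG) or a MEF2 site, the last in Casq2 alone.

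Casq1, chr1:172219896-172220145, minus strand: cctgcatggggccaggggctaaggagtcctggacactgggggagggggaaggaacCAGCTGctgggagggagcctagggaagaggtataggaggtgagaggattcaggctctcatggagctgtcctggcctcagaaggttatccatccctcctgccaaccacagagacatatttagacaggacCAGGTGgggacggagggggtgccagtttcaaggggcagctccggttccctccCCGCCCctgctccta

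Casq2, chr3:102086165-102086414, plus strand: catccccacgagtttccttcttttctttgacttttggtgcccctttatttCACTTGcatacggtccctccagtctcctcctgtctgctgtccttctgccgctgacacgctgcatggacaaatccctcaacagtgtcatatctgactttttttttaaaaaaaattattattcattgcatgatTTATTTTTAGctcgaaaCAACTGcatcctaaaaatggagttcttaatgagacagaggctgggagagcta

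Pln, chr10:53337436-53337685, plus strand: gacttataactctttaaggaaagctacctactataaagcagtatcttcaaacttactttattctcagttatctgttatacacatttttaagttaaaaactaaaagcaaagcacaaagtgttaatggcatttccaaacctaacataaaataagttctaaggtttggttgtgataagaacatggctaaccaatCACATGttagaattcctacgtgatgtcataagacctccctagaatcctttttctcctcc

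The MEF2 site of Casq2 begins 69 bases before the start, and the E-boxes begin 195 and 67 bases before it in Casq1, 200 and 52 bases in Casq2 and 59 bases in Pln. RefSeq windows of 300 bases, which add the first bases after the start, were matched for 23 of the 31 genes in 28 windows. The CArG box, the site bound by SRF, was matched in 0 of the 28 windows and in 1.63% of the 32851 windows of all genes. An E-box was matched in 22 of the 28 windows (78.6%, against 72.3% of all windows), a GC box in 18 (64.3%, against 35.7%) and a MEF2 site in 1 (3.57%, against 3.19%). A match is a description of these letters and not of a bound site, and a window without one says nothing about more distant sequence.

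Most of the calcium handling genes differed little between DKO and WT hearts. The log2 fold change, DKO over WT, lay within 0.5 of 0 for 29 of the 31 genes (93.5%, against 80.1% of all genes tested), with a median of -0.05 against 0.01 over all genes. Among the 31, the exceptions were Casq1 at -1.14 and Jph1 at 0.55. The share within 0.5 was 87.5% for 64 other calcium genes. The median size of the fold change was 0.18 for the 31 and 0.22 over all genes. These shares were not matched for expression level, and genes with low counts have noisier fold changes. By edgeR's quasi-likelihood test with Benjamini-Hochberg adjustment over all genes, 0 of the 31 passed an adjusted p of 0.05, where 0.075% of all genes did. DESeq2 called 1 of the 31, Casq1, where it called 3.81% of all genes. The targeted Mrtfa, at a log2 fold change of -1.82, did not pass the edgeR test either (adjusted p = 0.12). It did pass in DESeq2 (adjusted p = 1.21e-05). With 2 libraries a group, the absence of an edgeR call is therefore not evidence of no change. At an unadjusted edgeR p under 0.05, 1 gene was higher in DKO (8.7% of all genes were) and 4 were lower (8.63% of all genes were).

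Both DKO libraries lay above both WT libraries for 9 of the 31 genes, where 25.8% of all genes did, and below them for 6 of the 31, where 25.2% of all genes did. The 9 were Pln, Sri, Fkbp1b, Itpr1, Itpr2, Itpr3, Jph1, Trdn and Stim1, and the 6 were Casq1, S100a1, Calm3, Fkbp1a, Atp2a2 and Ryr2. The groups overlapped for the other 16. With library totals and no composition factor, 18 of the 31 fold changes were positive and 13 negative, in place of 12 and 19. The median over all genes moved too, from 0.01 to 0.08, as that of the 31 moved from -0.05 to 0.02. The count of signs therefore depends on the scaling.

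**Figure D1:**
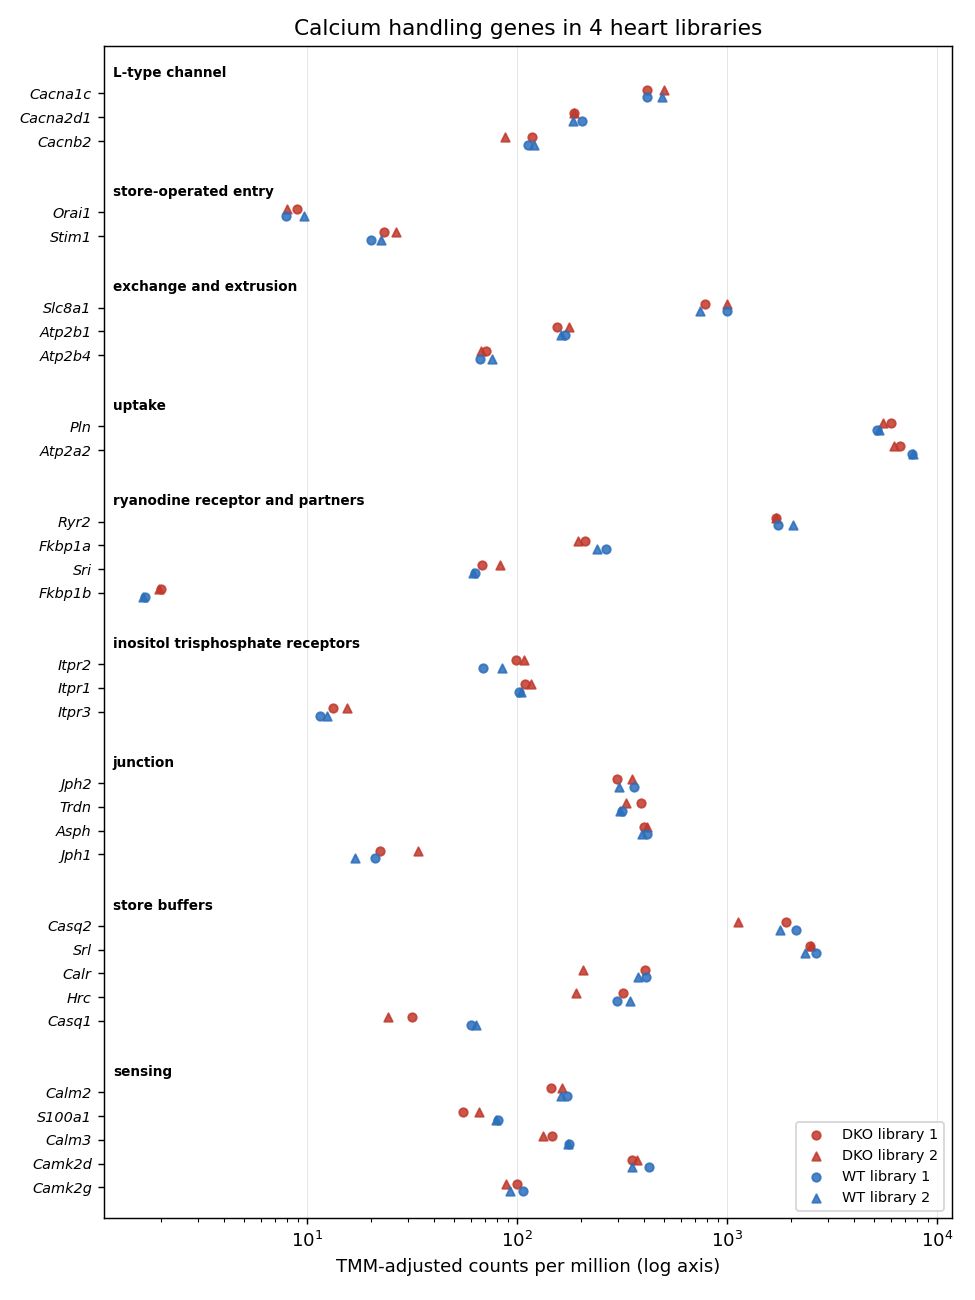
Level of each of the 31 calcium handling genes in every library, grouped by role. The x axis is TMM-adjusted CPM on a log axis, red marks are DKO libraries and blue marks WT libraries, circles are library 1 and triangles library 2. The red and blue marks of most genes sit together, while those of Casq1 stand apart at 31.5 and 24.2 CPM in DKO and 60.1 and 63.3 CPM in WT.

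**Figure D2:**
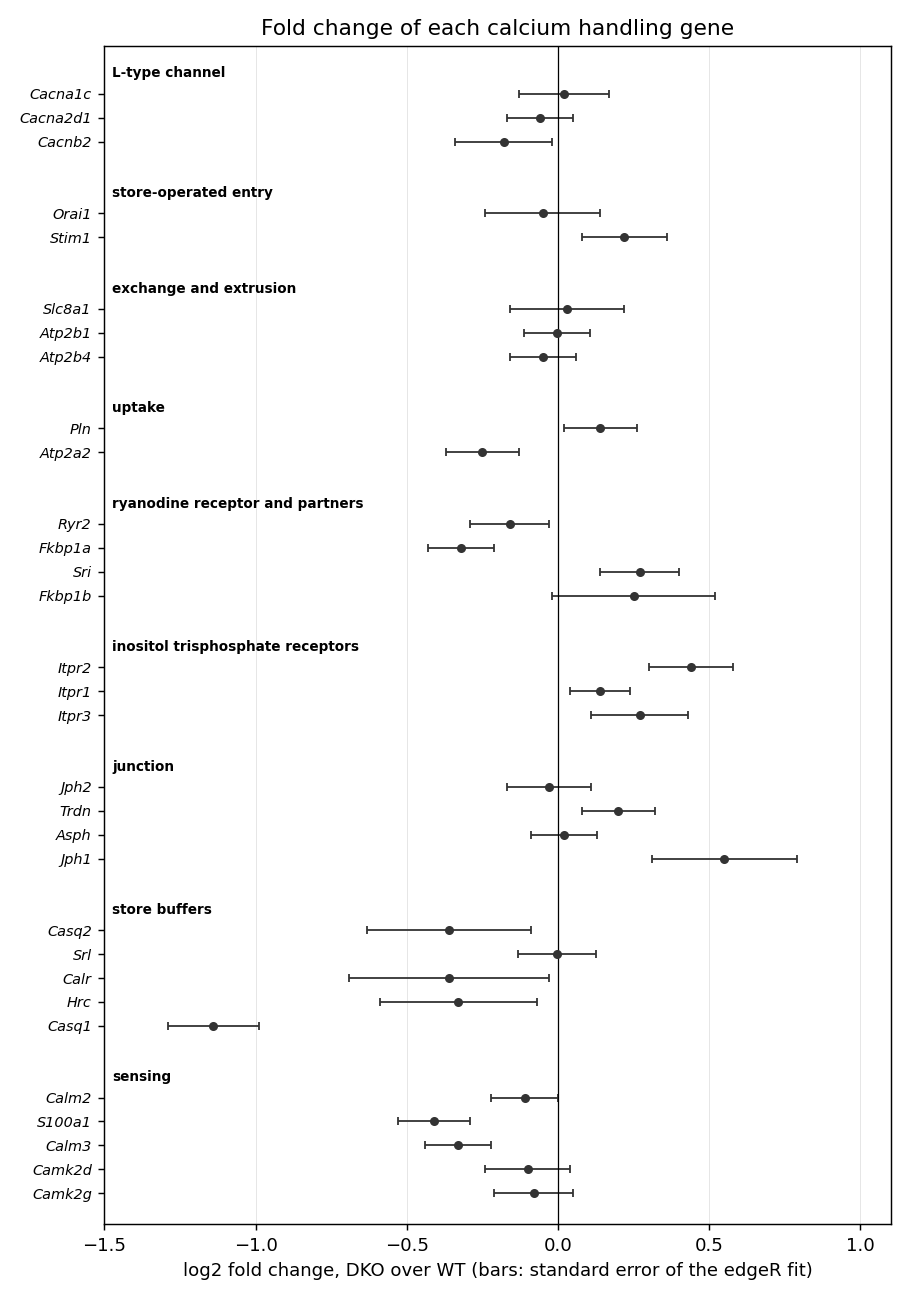
The log2 fold change, DKO over WT, of each gene on the x axis, with bars for the standard error of the edgeR fit. Casq1 at -1.14 is the only point beyond 1 in size, and the next in size is Jph1 at 0.55.

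Calcium enters through the L-type channel, whose pore is the Cacna1c product and whose accessory subunits come from Cacna2d1 and Cacnb2. Cacna1c was at 415 and 500.4 CPM in DKO and at 415 and 488 CPM in WT, so the groups covered the same range. Its log2 fold change was 0.02 (SE 0.15; edgeR adjusted p = 0.962). The accessory subunits had fold changes of -0.06 for Cacna2d1 and -0.18 for Cacnb2, and Cacnb2 was lower only in DKO library 2, at 87.0 CPM, against 117 CPM in DKO library 1 and 112 and 120 CPM in WT. In store-operated entry, the reticulum sensor STIM1 opens the ORAI1 channel of the surface membrane. Orai1 averaged 3.76 CPM per kilobase over the 4 libraries, against 21.4 for Cacna1c and 8.24 for Cacnb2. Orai1 was at 8.89 and 8.01 CPM in DKO and at 7.93 and 9.64 CPM in WT, and Stim1 had a fold change of 0.22 (SE 0.14; edgeR adjusted p = 0.476), which was 0.12 without DKO library 2 and 0.14 without WT library 1.

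Calcium leaves through the exchanger NCX1, encoded by Slc8a1, and the plasma membrane pumps Atp2b1 and Atp2b4. Slc8a1 was at 785 and 991 CPM in DKO and at 992 and 744 CPM in WT. The libraries within each group differed by more than the group means, which were 888 ± 145 CPM in DKO and 868 ± 175.5 CPM in WT (SD, n = 2 each). The pumps had fold changes of -0.003 for Atp2b1 and -0.05 for Atp2b4, with groups that overlapped.

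Uptake into the store rests on SERCA2, the pump encoded by Atp2a2, and on phospholamban, the small membrane peptide that inhibits it. The coding sequence of Pln is 159 bases long and is shown with its start and stop codons in capitals, because its transcript is the most abundant of the 31 per kilobase and is set against Atp2a2 below.

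Pln coding sequence: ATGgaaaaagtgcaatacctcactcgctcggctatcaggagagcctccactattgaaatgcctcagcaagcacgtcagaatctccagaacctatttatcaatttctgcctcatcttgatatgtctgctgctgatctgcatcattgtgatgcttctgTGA

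Pln (mm10 chromosome 10, from 53337667 to 53345987) had levels of 5979.7 and 5517 CPM in DKO and of 5172 and 5251 CPM in WT. Atp2a2 (mm10 chromosome 5, from 122453513 to 122502225) was at 6648 and 6181 CPM in DKO and at 7593 and 7645.5 CPM in WT. Both DKO libraries thus lay above both WT libraries for the inhibitor and below them for the pump. Neither difference passed the test: the log2 fold change was 0.14 for Pln (SE 0.12; edgeR adjusted p = 0.59) and -0.25 for Atp2a2 (SE 0.12; edgeR adjusted p = 0.36). Of the 7 cardiomyocyte markers, 5 lay lower in both DKO libraries, as Atp2a2 did, where 25.2% of all genes did. The median fold change over these markers, which include Ryr2, was -0.18, and 0 of the 7 had an unadjusted edgeR p under 0.05. Their part in the result was not tested.

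The ratio of the pair within a library does not depend on the scaling between libraries. Since Pln lay above and Atp2a2 below in both DKO libraries, the groups could not overlap in it. Per kilobase, Pln stood at 1.98 and 1.97 times Atp2a2 in the DKO libraries and at 1.5 and 1.51 times in the WT libraries. The ratio averaged 1.97 ± 0.0109 in DKO and 1.51 ± 0.00891 in WT (SD, n = 2 each), a log2 difference of 0.39 that stayed between 0.38 and 0.40 when any 1 library was left out. An exact permutation test of 2 libraries against 2 cannot go below a two-sided p of 0.333, so the ratio is given as a description. Part of the Pln exons (59.6%) lies opposite Gm47644, and no source used here states whether counting used strand, so reads of the partner cannot be told apart. A stretch of 362 bases of Atp2a2 has a processed pseudogene copy, Gm30970, at 99.2% identity.

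Other genes of the pump's control came from a wider list. Sln, which encodes sarcolipin, another small inhibitor of SERCA pumps and an atrial marker, was at 28.1 and 37.1 CPM in DKO and at 3.84 and 19.2 CPM in WT (log2 fold change 1.5, SE 0.73; edgeR adjusted p = 0.374). The log2 ratio of WT library 2 to WT library 1 was 2.32, larger than the difference between the groups.

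Release runs through the ryanodine receptor RYR2. Ryr2 was at 1697 and 1705 CPM in DKO and at 1746 and 2052 CPM in WT. Its log2 fold change was -0.16 (SE 0.13; edgeR adjusted p = 0.578). WT library 1 lay close to the DKO libraries. Its partners differed in direction. Fkbp1a encodes FKBP12, which binds ryanodine receptors and steadies their closed state. It was at 211 and 194 CPM in DKO and at 265 and 239 CPM in WT. Its log2 fold change was -0.32 (SE 0.11; edgeR unadjusted p = 0.0336, adjusted p = 0.252).

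Fkbp1b encodes FKBP12.6, the closely related protein tied to RYR2, and was barely expressed, with 57 and 32 counts in DKO and 48 and 41 counts in WT. Its ratio to Fkbp1a per kilobase was 0.0361 and 0.0381 in DKO and 0.0241 and 0.0260 in WT, and these low counts limit its precision. With Fkbp1b above and Fkbp1a below in both DKO libraries, the groups could not overlap in this ratio. The coding sequences of Fkbp1a and Fkbp1b are 74.9% identical over 327 bases, with at most 14 identical bases in a row, which reads can tell apart. Sri encodes sorcin, a calcium-binding modulator of RYR2, and lay higher in DKO, with a fold change of 0.27 (SE 0.13; edgeR adjusted p = 0.356) that was 0.12 without DKO library 2.

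The inositol trisphosphate receptors release calcium from the same store in answer to hormone signals. Both DKO libraries lay above both WT libraries for the 3 genes, as they did for 25.8% of all genes, and none of the 3 passed the adjusted edgeR test. Itpr2 was at 98.8 and 108 CPM in DKO and at 68.3 and 84.1 CPM in WT, a ratio of 1.36. Its log2 fold change was 0.44 (SE 0.14; edgeR unadjusted p = 0.0181, adjusted p = 0.205; DESeq2 adjusted p = 0.208). Itpr1 was at 109 and 116 CPM in DKO and at 101.5 and 104 CPM in WT, and Itpr3 at 13.2 and 15.5 CPM in DKO and at 11.4 and 12.4 CPM in WT. Summed, the 3 genes stood at 221 and 239.9 CPM in DKO and at 181 and 200.2 CPM in WT. The sums could not overlap, since each gene lay higher in both DKO libraries. Their coding sequences share at most 32 identical bases in a row, between Itpr2 and Itpr3.

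Marker lists of other cell types are given beside these receptors, where both DKO libraries lay above both WT libraries for 25.8% of all genes and below for 25.2%. The 7 atrial muscle markers, which include Sln, summed to 1541 and 1364 CPM in DKO and to 677 and 1041 CPM in WT. Of these, 5 of 7 lay higher in both DKO libraries, and 0 were at 0. The 6 smooth muscle markers summed to 819 and 781 CPM in DKO and to 3347 and 1870.4 CPM in WT, 5 of 6 lay lower in both DKO libraries, and 0 were at 0. The 6 macrophage markers summed to 61.2 and 50.8 CPM in DKO and to 44.4 and 48.9 CPM in WT, 3 of 6 lay higher in both DKO libraries and 0 lower, and 0 were at 0. The 6 endothelial markers summed to 1192 and 1211 CPM in DKO and to 1201 and 1269 CPM in WT, 3 of 6 lay higher in both DKO libraries and 1 lower, and 0 were at 0. Of the 7 fibroblast markers, 1 lay higher in both DKO libraries and 0 lower. Of the 4 ventricular muscle markers, 1 lay higher and 1 lower. Of the 5 red cell markers, 0 lay higher and 1 lower. Only 1 of the 6 neuron and glia markers was tested, and its groups overlapped. The part of these lists in the receptor levels was not tested.

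Junction genes hold the surface membrane and the store together. Jph2 encodes junctophilin 2, the main cardiac tether, and was at 297 and 352 CPM in DKO and at 357 and 305 CPM in WT, with groups that overlapped. Jph1 encodes the junctophilin that skeletal muscle uses. It was at 22.1 and 33.7 CPM in DKO and at 21.0 and 16.9 CPM in WT. DKO library 1 was close to WT library 1, and the fitted log2 value of 0.55 (SE 0.24; edgeR adjusted p = 0.305) became 0.22 without DKO library 2 and 0.83 without DKO library 1.

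The ratio of Jph1 to Jph2 per kilobase was 0.0633 and 0.0815 in DKO and 0.0499 and 0.0471 in WT, so the groups did not overlap. Trdn encodes triadin, which anchors calsequestrin at the release channel, and was at 386 and 329.6 CPM in DKO and at 316 and 309 CPM in WT (log2 fold change 0.20, SE 0.12; edgeR adjusted p = 0.462), and the fold change was 0.08 without DKO library 1. Asph, whose locus also makes the junctional protein junctin, had a fold change of 0.02, and 14.3% of its exon length lies opposite Clvs1, which had 13 to 26 counts.

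**Figure D3:**
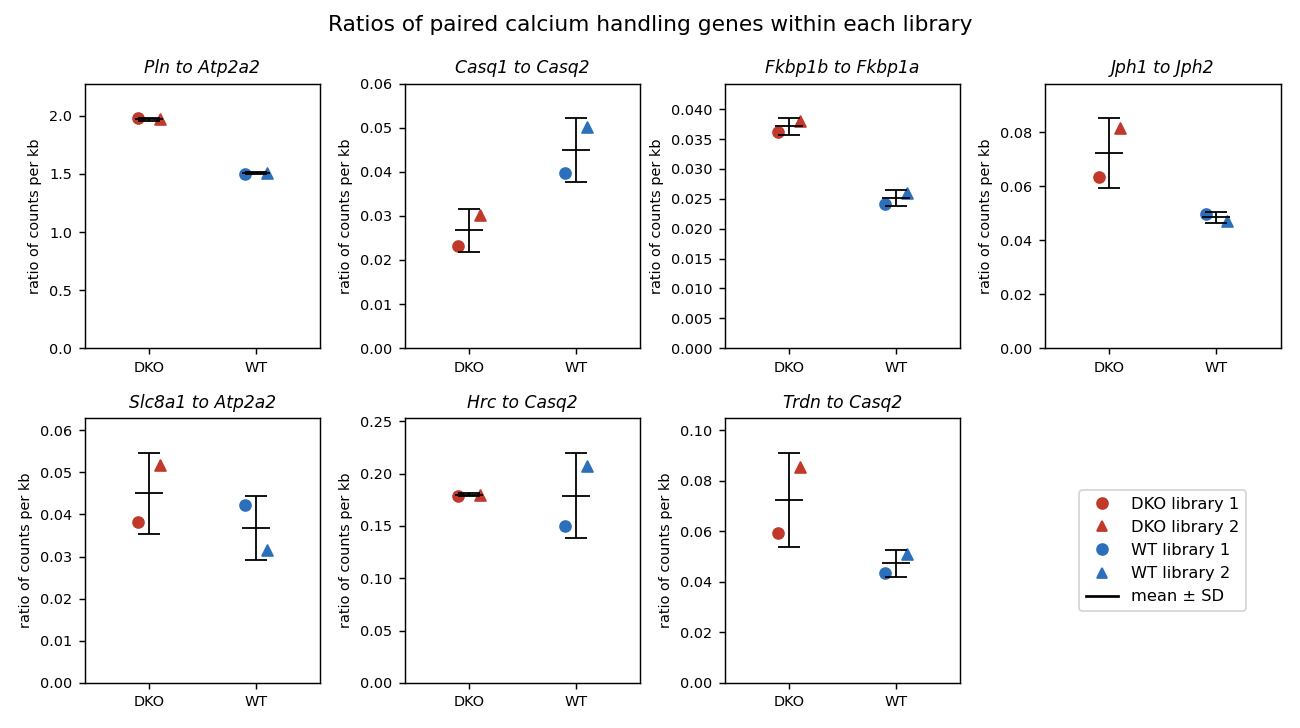
Ratios of paired genes within each library, in counts per kilobase of exon, with DKO in red and WT in blue, circles for library 1, triangles for library 2, and bars for mean ± SD of 2 libraries. Each y axis starts at 0. The groups do not overlap for 5 of the 7 ratios, some of which share Casq2 or Atp2a2. For Pln to Atp2a2 and Fkbp1b to Fkbp1a they could not, since the single genes already lay apart in opposite directions. Of all single genes tested, 25.8% lay above in both DKO libraries and 25.2% below. The share over ratios of other gene pairs was not computed, so the count of ratios has no background. Pln to Atp2a2 is the tightest ratio, at 1.98 and 1.97 in DKO and 1.5 and 1.51 in WT.

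The store's calcium is held by buffers, and the largest difference of the 31 genes was here. Casq1 (ENSMUSG00000007122, chromosome 1, 172209894 to 172219868) encodes calsequestrin 1, the calcium buffer of the sarcoplasmic reticulum best known from fast skeletal muscle. It had 893 and 396 counts in DKO and 1704 and 1575 counts in WT. That was 31.5 and 24.2 CPM in DKO and 60.1 and 63.3 CPM in WT, so both DKO libraries lay below both WT libraries. The means were 27.9 ± 5.14 CPM in DKO and 61.7 ± 2.29 CPM in WT (SD, n = 2 each), a ratio of 0.452.

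The log2 fold change of Casq1 was -1.14 (SE 0.15). Its unadjusted edgeR p was 3.27e-04, the adjusted p was 0.12, and DESeq2 placed it past the threshold with an adjusted p of 6.20e-06. Over 10 alternative settings the fold change ran from -1.35 to -0.97 and the adjusted p from 3.01e-12 to 0.864, and 4 of the settings placed it past the threshold. Those were DESeq2, no filter on low counts, and the fits without DKO library 1 or without DKO library 2. Without WT library 1 or 2 the adjusted p was 0.864 and 0.509, although the fold change was -1.18 and -1.12.

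Since Casq1 is known from skeletal muscle, its level was set beside 13 skeletal muscle markers. Of the 13 skeletal muscle markers, which include the fast myosins and the myogenic factors, 8 were below the filter, with at most 13 counts in any library, and Myod1, Myf6 and Pax7 were at 0 in all 4. The whole list summed to 8.15 and 9.30 CPM in DKO and to 8.99 and 13.0 CPM in WT. The 5 markers tested had a median log2 fold change of -0.35, the same sign as Casq1. At an unadjusted edgeR p under 0.05, 1 marker was higher (8.7% of all genes were) and 1 was lower (8.63% of all genes were). Their part in the Casq1 result was not tested. An antisense gene, Gm17224, overlaps 8% of the Casq1 exon length.

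Casq2, the cardiac calsequestrin, averaged 632 CPM per kilobase over the 4 libraries, against 22.9 for Casq1. It was at 1906 and 1126 CPM in DKO and at 2116 and 1772 CPM in WT, so DKO library 1 lay between the WT libraries and DKO library 2 lay below all others. Its log2 fold change was -0.36 (SE 0.27; edgeR adjusted p = 0.534), and it was -0.03 without DKO library 2 and -0.79 without DKO library 1. Casq1 stood at 0.0232 and 0.0302 of Casq2 per kilobase in DKO and at 0.0398 and 0.0501 in WT, so the share held by the skeletal form was lower in both DKO libraries. The coding sequences of Casq1 and Casq2 are 68.0% identical where aligned, with at most 25 identical bases in a row.

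Hrc encodes the histidine-rich calcium-binding protein of the store lumen, which also binds triadin. It was at 319 and 191 CPM in DKO and at 297 and 345 CPM in WT. Calr encodes calreticulin, the main calcium buffer of the endoplasmic reticulum in embryonic heart. It was at 404 and 204 CPM in DKO and at 408 and 375.5 CPM in WT. For both genes DKO library 1 lay within the WT values and DKO library 2 well below them. The log2 fold change of Hrc was -0.33, with -0.01 without DKO library 2 and -0.75 without DKO library 1. Srl encodes sarcalumenin, another luminal calcium-binding protein, and had 2460.1 and 2505 CPM in DKO and 2637 and 2339 CPM in WT, a fold change of -0.003. The Srl gene lies 8.71 Mb from Mrtfb on chromosome 16, the only one of the 31 on a chromosome of a targeted gene.

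Casq2, Hrc and Calr therefore differed more within the DKO pair than between the groups. The log2 ratio of DKO library 2 to DKO library 1 was -0.76 for Casq2, -0.74 for Hrc and -0.98 for Calr, while the WT pair, library 2 over library 1, gave -0.26, 0.21 and -0.12. The ratio of Hrc to Casq2 per kilobase was 0.179 and 0.180 in the DKO libraries, against 0.150 and 0.207 in the WT libraries, so both genes lay low together in DKO library 2. Over all 31 genes the median size of the log2 ratio was 0.18 in the DKO pair and 0.15 in the WT pair, against 0.24 and 0.15 over all genes tested. Atp2a2, Pln, Ryr2 and Srl, at -0.10, -0.12, 0.01 and 0.03 in the DKO pair, did not follow.

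The count of calls followed the library left out. Without DKO library 1, edgeR placed 9 of the 31 past the threshold, where 17.1% of all genes passed: Cacnb2, Calm3, Calr, Casq1, Casq2 and Hrc lower and Itpr2, Jph1 and Sri higher. Without DKO library 2 it placed 2 of the 31, Casq1 and S100a1, both lower, where 8.24% of all genes passed. Without WT library 1 or 2 it placed 0. In each of these fits the lone library was assumed to vary like the other group. With no filter on low counts edgeR placed 4 of the 31, Casq1 and S100a1 lower and Itpr2 and Jph1 higher, where 6.07% of all genes passed.

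**Figure D4:**
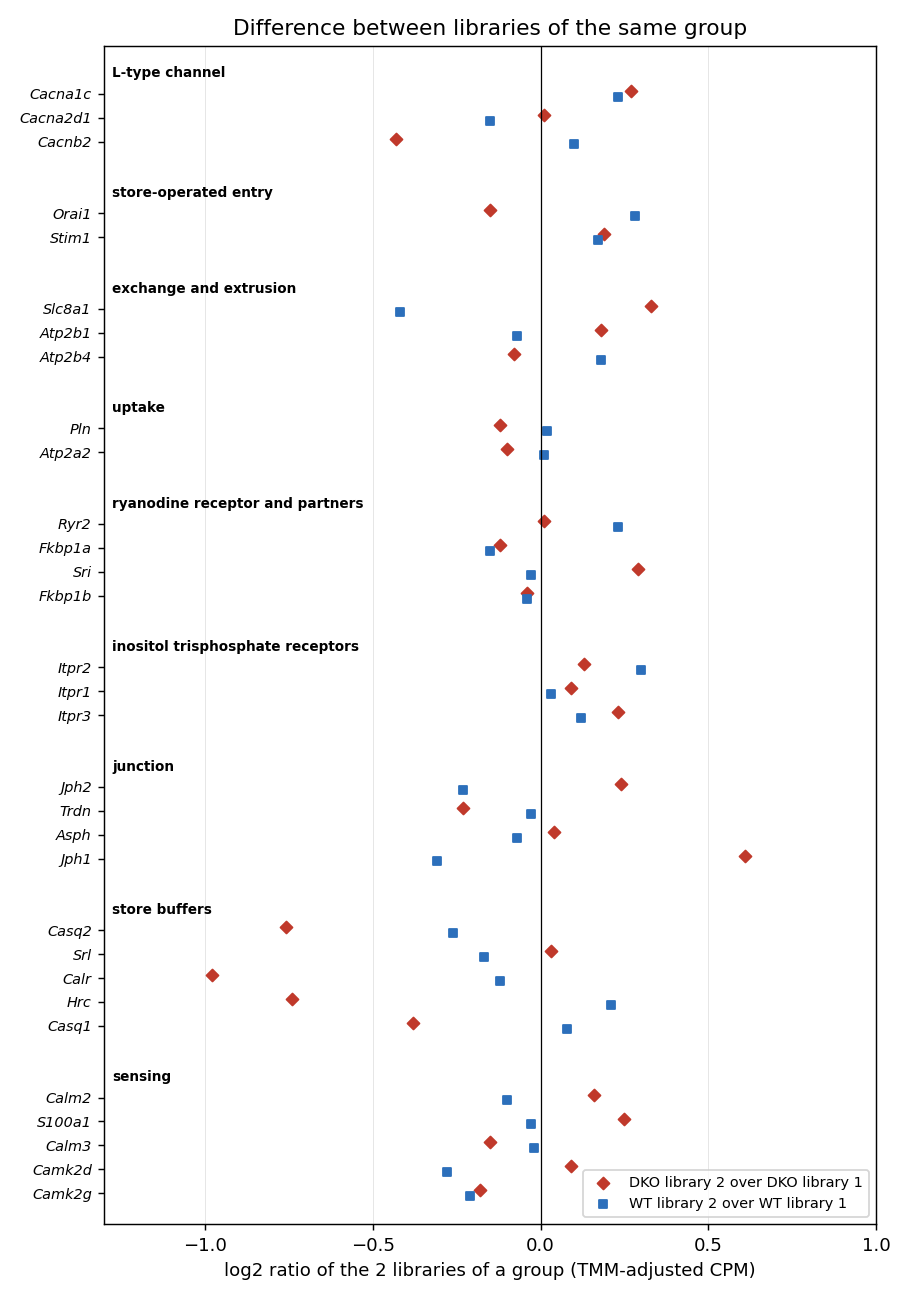
Log2 ratio of library 2 to library 1 within each group for each gene, with red diamonds for the DKO pair and blue squares for the WT pair. Calr, Casq2 and Hrc have the most negative DKO values, at -0.98, -0.76 and -0.74, and Jph1 has the most positive, at 0.61.

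Sensing genes lay lower in DKO in all 5 fitted values, from -0.41 to -0.08, with a median of -0.11, and none passed the adjusted edgeR test. Both DKO libraries lay below both WT libraries for 2 of the 5, where 25.2% of all genes did. S100a1 encodes a small calcium-binding protein that enhances SERCA2 and ryanodine receptor function in heart muscle. It was at 54.8 and 65.3 CPM in DKO and at 80.6 and 78.8 CPM in WT, a ratio of 0.754. The log2 fold change was -0.41 (SE 0.12; edgeR unadjusted p = 0.0159, adjusted p = 0.198; DESeq2 adjusted p = 0.21).

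Calmodulin, the general calcium sensor, is made as the same protein from several genes. Calm3 was at 146 and 132 CPM in DKO and at 176 and 173 CPM in WT (log2 fold change -0.33, SE 0.11; edgeR unadjusted p = 0.0221, adjusted p = 0.22). Calm2 was at 145 and 162 CPM in DKO and at 172 and 161 CPM in WT, where the groups overlapped. The coding sequences of Calm2 and Calm3 are 82.7% identical, but processed pseudogenes match Calm2 at 96.9% (Gm7308) and 98.2% (Gm15720) and Calm3 at 96.2% (Gm5881), so their levels are uncertain. Camk2d and Camk2g encode the calmodulin-dependent kinase forms of the heart and had fold changes of -0.10 and -0.08, with groups that overlapped.

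Per kilobase, the order of the 31 genes was led by Pln at 2083 CPM per kilobase in DKO and 1889 in WT. It was followed by Atp2a2 at 1055 and 1253, Casq2 at 554 and 710.5, and Srl at 466 and 467, each given for DKO and then WT. Ryr2 came far lower, at 59.1 CPM per kilobase in DKO and 66.0 in WT, close to Fkbp1a at 52.5 in DKO and 65.3 in WT. Fkbp1b, Itpr3, Stim1 and Orai1 were lowest, with averages over the 4 libraries from 1.46 to 3.76 CPM per kilobase. Exon lengths hold every annotated exon of a gene, so a gene with long rarely used exons reads low.

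A wider list of 75 further calcium genes, named with the design, held 72 that matched an identifier and 64 that passed the filter. Their median log2 fold change was -0.0019, with 32 negative and 32 positive, edgeR placed 0 past the threshold and DESeq2 placed 1, where 3.81% of all genes passed. At an unadjusted edgeR p under 0.05, 3 of the 64 were higher (4.69%, against 8.7% of all genes) and 4 were lower (6.25%, against 8.63%). The DESeq2 call was Cacna1h, which encodes the pore of a T-type calcium channel, a channel prominent in embryonic heart. It was at 25.2 and 17.0 CPM in DKO and at 36.9 and 42.8 CPM in WT. The log2 fold change was -0.91 (SE 0.21; edgeR adjusted p = 0.157; DESeq2 adjusted p = 0.0118), and both DKO libraries lay below both WT libraries. Its edgeR or DESeq2 adjusted p ran from 1.42e-06 to 0.971 over the 10 alternatives. Of the marker lists given above, 5 of 6 smooth muscle and 5 of 7 cardiomyocyte markers also lay lower in both DKO libraries. Of the 7 atrial muscle markers, 5 lay higher. The part of these lists in the Cacna1h result was not tested.

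None of the 4 others given from that list passed either tool over all genes. Letm1, which encodes an ion exchange protein of the inner mitochondrial membrane, was at 79.1 and 60.3 CPM in DKO and at 104 and 100.3 CPM in WT. Trpm7, a channel fused to a kinase, was at 343 and 448 CPM in DKO and at 305 and 260.3 CPM in WT. Camk2b was at 13.7 and 9.54 CPM in DKO and at 5.427 and 7.997 CPM in WT. Prkaca, the catalytic subunit of protein kinase A, had a fold change of -0.37.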

How the data were processed

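RNA was sequenced from hearts at postnatal day 0, and the authors deposited raw counts of reads per Ensembl gene, 1 file per library, and the submitters' processing notes name HTSeq, mm10 and DESeq 1.10.1. For the aligner, annotation release, strand setting and reads with several matches: not given in the sources used here. Files held 43346 identifiers and 0 rows naming no gene. GENCODE M21 on the same build gave symbols and exon lengths for 42462.

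Counts were tested with edgeR 4.0.16 in R 4.3.3 (filterByExpr defaults, TMM factors, robust quasi-likelihood test, all 4 libraries, no covariate), with adjustment over all 16009 genes tested and an adjusted p of 0.05 as the threshold. The SE is the fold change divided by the root of the test's F. A count of 3 in 1 library equals 0.106 to 0.184 CPM, which covers counting error only. Alternatives were RLE factors, library totals alone, testing every gene with counts, a stricter minimum (a mean of 50 counts, and over 1 CPM in both libraries of either genotype), DESeq2 1.42.0, a replicate block and leaving out each library. DESeq2 gave an adjusted p for 13812 genes. A chi-square per gene of 38.4 in the DKO pair and 16.3 in the WT pair was above sampling noise; each library was used as its own sample.

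Genes and lists were chosen with earlier results of these data known. Values per library were given for genes with an unadjusted edgeR p or a DESeq2 adjusted p under 0.05 and for the highest per kilobase in each role. Partners in the fixed ratios were added, and up to 6 further calcium genes with a mean of at least 5 CPM and the smallest p, of which 1 is not reported here. Sln, Srl, Calr, Cacnb2, Itpr1, Itpr3 and the skeletal comparison were chosen after their values were seen. Copies were sought with blastn 2.17.0 among annotated transcripts (at least 200 bases and 95% identity).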

Additional observations from a re-analysis of the deposited data

How the results depend on the processing

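The numbers in the titles do not pair the samples: with 2 pairs and no label that says so, they share only a number, and deviations of same-numbered libraries correlated at -0.0965 over all genes. With a replicate block edgeR placed 2 genes past the threshold in place of 12, and 0 of the 31 calcium handling genes, as without it. The count over all genes was 1514 with no filter, 526 in DESeq2, 11 with RLE factors and 8 with the stricter filter, and 2 to 2795 with 1 library left out. The 31 genes gave 0 calls with RLE factors, no composition factor, the stricter filter or the block, 4 with no filter, 1 in DESeq2 and 0 to 9 with 1 library left out; the wider list gave 4, 1 and 0 to 10. The median fold change of the 31 was 0.02 with no composition factor, where that over all genes was 0.08 in place of 0.01. With 1 library left out, the median of the 31 was -0.10 to 0.02. The cause of these changes was not tested. With no composition factor the sign turned for Atp2b1 (0.07), Atp2b4 (0.02), Cacna2d1 (0.01), Jph2 (0.04), Orai1 (0.02) and Srl (0.07), with the stricter filter for Atp2b1 (0.0032) and Srl (0.0029), and with no filter for Asph (-0.00018). Leaving out 1 library gave ranges through 0 for Asph (-0.03 to 0.05), Atp2b1 (-0.10 to 0.08), Atp2b4 (-0.14 to 0.03), Cacna1c (-0.12 to 0.15), Cacna2d1 (-0.15 to 0.01), Cacnb2 (-0.42 to 0.01), Calr (-0.94 to 0.04), Camk2d (-0.25 to 0.04), Camk2g (-0.20 to 0.02), Jph2 (-0.16 to 0.09), Orai1 (-0.19 to 0.08), Slc8a1 (-0.17 to 0.25), Srl (-0.10 to 0.08), Mrtfb (-0.25 to 0.01) and the log2 ratio of Hrc to Casq2 (-0.21 to 0.26). Ranges on 1 side of 0 that moved by over 1.5 times included Casq2 (-0.79 to -0.03), Hrc (-0.75 to -0.01), Sri (0.12 to 0.40), Trdn (0.08 to 0.30), Stim1 (0.12 to 0.31), Itpr2 (0.29 to 0.58), Itpr3 (0.15 to 0.38), Ryr2 (-0.27 to -0.05), Letm1 (-0.77 to -0.37), Trpm7 (0.28 to 0.66) and Camk2b (0.51 to 1.09). Such ranges were also seen for S100a1 (-0.54 to -0.29), Calm3 (-0.41 to -0.26), Fkbp1a (-0.40 to -0.24) and Pln (0.08 to 0.20). Calm2 (-0.20 to -0.04), Itpr1 (0.09 to 0.18), Jph1 (0.22 to 0.83) and Cacna1h (-1.23 to -0.66) moved by as much. Casq1, S100a1, Itpr2, Calm3, Fkbp1a, Atp2a2 and Pln kept their sign in all 10 alternatives. So did Calm2, Casq2, Hrc, Itpr1, Itpr3, Jph1, Ryr2, Sri, Stim1 and Trdn, and Fkbp1b did in the 9 that tested it. Fkbp1b left the stricter filter, and at 32 to 57 counts its depth limits what can be seen.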
